A study of Homo sapiens with 12 samples.

Results

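The genes described here are those that Ensembl had named LINC and a number, the placeholder given to long intergenic noncoding RNAs without a better name, and that were expressed in HCT116 cells. HCT116, a long-established line of human colorectal carcinoma cells, was grown in 21% oxygen (0 h) or moved to 1% O2 for 1, 2 or 24 h, and 3 libraries of strand-specific poly(A) RNA were sequenced per time point, 12 in all. Nothing else differed between the groups by their labels, all 12 libraries come from 1 line, and low oxygen began 24 h after plating. When the 0 h cells were collected is not given in the sources used here. Hours in culture and hours in low oxygen may therefore differ together at 24 h, and then the effects of one cannot be told apart from those of the other.

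Of 550 LINC names listed with a transcript that matched an Ensembl model fully (class code =) or shared part of its splice sites (class code j), 311 were at 0 in every library and 166 were above 0 but under the level threshold. The remaining 73 were selected on their measured values, as the rule asked for a summed abundance above 0.5 in at least 3 libraries. Abundance is given as FPKM, mapped fragments scaled to transcript length and library total, which is a level per length and can be compared between genes. The selection used levels in all 4 groups, so the presence of these genes in the list is not a result. Among the 73, the lowest third-highest values were those of LINC00937, LINC00910 and LINC00535, at 0.521, 0.542 and 0.574 FPKM. Just outside stood LINC00982, LINC00337 and LINC00944, at 0.494, 0.477 and 0.460 FPKM.

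Long noncoding RNAs are transcribed, spliced and polyadenylated like messenger RNAs, and act, where a role is known, as scaffolds, decoys or by the act of their transcription beside another gene. Some annotated as noncoding were later found to encode small proteins. When oxygen falls, the HIF transcription factors are stabilised and bind the core motif ACGTG or GCGTG near genes of glycolysis, angiogenesis and pH control, and slower responses alter transcription and RNA processing more widely.

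Later annotation went against the name in some members. RefSeq held an entry for all 73, under another symbol for 24, and listed 8 as protein coding. GENCODE release 44, mapped to GRCh37, held 71 of them and called 10 protein coding. It placed 10 members across a coding gene on the opposite strand and 6 across one on the same strand, and 24 shared an assembled locus with a gene of another name. "LINC gene" is therefore used here as a name, not as a statement that the RNA is intergenic or noncoding. In 16 members a transcript matched another gene elsewhere over at least 300 bases at 95% identity or more, so that reads may have been divided between copies and their values are uncertain. The search used reference transcripts held by GENCODE, so that LINC00623 and LINC01002, which it did not hold, were not searched.

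Most LINC genes were expressed at low levels, and a few carried most of the signal. The mean over 12 libraries ranged from 0.370 to 74.1 FPKM with a median of 1.88, against 8.66 over all 16680 gene names that passed the same threshold. It was under 1 FPKM in 29 members, from 1 to 10 in 36 and over 10 in 8, and 42 members were above 0.5 FPKM in every library. The summed level of the 73 was 464 ± 10.2 FPKM (SD, n = 3) before hypoxia, 497 ± 29.9 after 1 h, 517 ± 21.3 after 2 h and 517 ± 31.8 after 24 h. The 4 most abundant genes made up 50.2% to 61.9% of this sum at 0, 1 and 2 h and 44.2% to 49.2% at 24 h.

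Hypoxia target genes followed the time labels, since all 8 examined (CA9, ADM, NDRG1, EGLN3, VEGFA, PDK1, ANKRD37 and BNIP3) rose at 24 h, by 1.90 to 5.45 on the log2 scale. Of 7 epithelial and intestinal markers, 6 were detected, with KRT8 at a mean of 922 FPKM, and VIL1 was near 0 at 0.0182. Of these, CDH1, which encodes E-cadherin, was called higher at 24 h (log2 change 1.76), and KRT19 had a log2 change of 0.99 (limma adjusted p = 1.66e-05), just short of the threshold. Of 7 markers of blood, endothelial and fibroblast cells, COL1A1 was at 3.21 FPKM and the others were at or below 0.0073. COL1A1, a fibroblast collagen gene, was called higher at 24 h (log2 change 1.59), and the part of these markers in the results was not tested, while PTPRC, PECAM1 and HBB were at or near 0 throughout. The files give no depth for these values, so precision is shown by the SD or SE over 3 replicates and not by a counting interval. The study calls the replicates biological. The labels do not say whether they were separate cultures, and p-values measure only the spread between these libraries.

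No LINC gene passed the test in the first 2 h, whereas 12 did at 24 h. Each gene was tested with limma on log2(FPKM + 0.5) across all 16680 gene names, and was called when the Benjamini-Hochberg adjusted p was under 0.01 and the log2 change was beyond 1 in either direction. At 1 h limma called 0 of the 73, against 0.006% of all gene names, and 5 (6.85%) had an unadjusted p under 0.05, 4 of them higher, against 4.61% of all gene names. At 2 h it called 0, against 0.018%, and 8 (11%) had an unadjusted p under 0.05, 6 of them higher, against 15.3% of all gene names. At 24 h it called 12 of 73 (16.4%), against 18.3% of all gene names. The median log2 change of the 73 was 0.02 after 1 h, 0.02 after 2 h and 0.15 after 24 h, where all gene names had medians of -0.01, -0.02 and -0.05. Fold changes on this scale understate those of genes near 0.

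Of the 12 called members, 10 rose and 2 fell. Among all gene names, 8.76% were called higher and 9.51% were called lower at 24 h, while the members divided into 13.7% and 2.74%. With full matches to Ensembl alone the split was 4 higher and 3 lower. Counting also the members that missed the fold threshold, 21 (28.8%) had an adjusted p under 0.01, 14 higher and 7 lower, against 41.5% of all gene names. A positive log2 change was found in 47 of 73 members (64.4%) and in 47.2% of all gene names. LINC00886 and LINC00882 passed the level threshold only through their 24 h libraries, and LINC00887 and LINC00663 through those and 1 other library. The shares of rises therefore rest partly on members that were listed for their levels at 24 h. The 24 h and 0 h libraries did not overlap in 32 members, including all 12 called, against 60.4% of all gene names. The plot of all members by library is ordered by this change, so that the contrast of the 24 h columns at its top and bottom follows from the order.

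**Figure D1:**
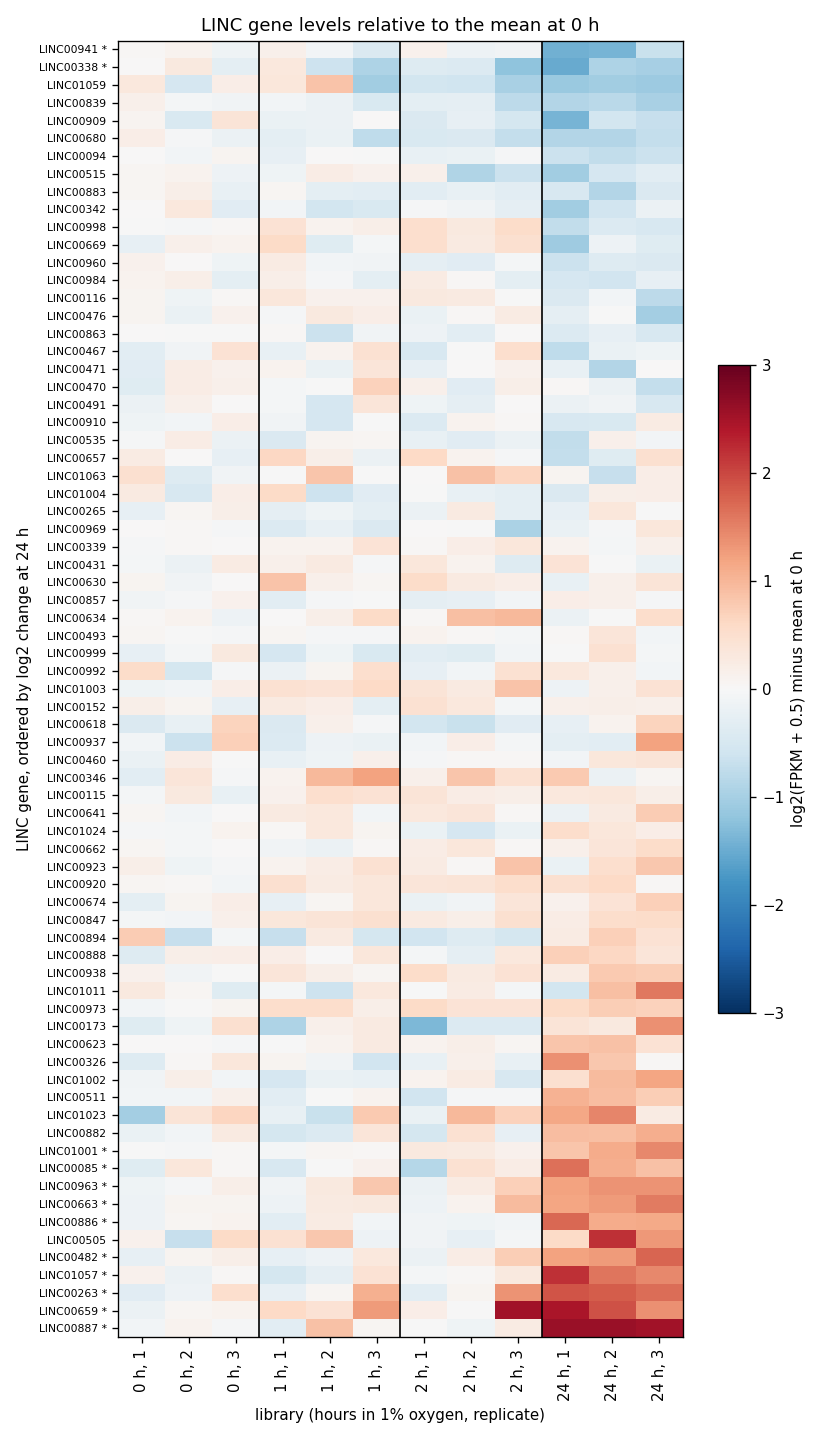
Level of each of the 73 LINC genes (rows, ordered by log2 change at 24 h, called genes marked with an asterisk) in each of the 12 libraries (columns, grouped by hours in 1% oxygen), as log2(FPKM + 0.5) minus the gene's mean at 0 h. LINC00887, at the bottom, is highest in the 3 libraries at 24 h, and LINC00941, at the top, is lowest there.

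LINC00887 had the largest rise of the 73. It lies on chromosome 3, 194013980 to 194040660, minus strand (GRCh37). Its level was 0.0949, 0.172 and 0.116 FPKM in the 3 libraries at 0 h and 3.28, 3.28 and 3.10 FPKM at 24 h. The 24 h libraries lay close together and far above every earlier one, since those at 1 and 2 h ranged from 0 to 0.646 FPKM. The log2 change was 2.57 ± 0.26 (SE), limma adjusted p = 7.73e-06. Since it passed the level threshold through its 3 libraries at 24 h and 1 at 1 h, a difference was partly built into its selection. Most of its FPKM lay in isoforms that matched the Ensembl models only in part (77.9% over the 12 libraries). The called isoform was one of 552 bases of this kind, at 0.0949, 0.152 and 0.108 FPKM at 0 h and 1.58, 1.95 and 1.67 at 24 h (log2 change 1.85 ± 0.32 (SE), limma adjusted p = 0.00147). It passed the level threshold through the same 4 libraries as the gene. The nearest other expressed gene with a single locus was HES1, a transcriptional repressor and target of Notch signalling. HES1 lay 64283 bases from the assembled Cufflinks locus of LINC00887, which reaches further towards HES1 than the GENCODE positions given above, and was also called higher (log2 change 1.83, adjusted p = 0.00176 by limma).

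The promoters of the LINC genes with the 2 largest log2 changes and of the 2 called lower were read from RefSeq (GRCh38.p14), each from 250 bases before to 50 after the annotated start, to see whether the letters that HIF binds were present. They are written 5′ to 3′ in the direction of transcription, with ACGTG or its reverse complement CACGT in capitals. They belong to LINC00887 (chr3:194312755-194313054, minus strand), LINC00659 (chr20:62776807-62777106, minus strand), LINC00941 (chr12:30795431-30795730, plus strand) and LINC00338 (chr17:77088393-77088692, plus strand).
LINC00887: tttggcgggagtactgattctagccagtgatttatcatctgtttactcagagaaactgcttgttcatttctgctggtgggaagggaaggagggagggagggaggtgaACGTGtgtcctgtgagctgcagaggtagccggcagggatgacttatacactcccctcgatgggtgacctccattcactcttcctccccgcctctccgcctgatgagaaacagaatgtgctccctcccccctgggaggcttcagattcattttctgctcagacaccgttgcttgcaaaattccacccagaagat
LINC00659: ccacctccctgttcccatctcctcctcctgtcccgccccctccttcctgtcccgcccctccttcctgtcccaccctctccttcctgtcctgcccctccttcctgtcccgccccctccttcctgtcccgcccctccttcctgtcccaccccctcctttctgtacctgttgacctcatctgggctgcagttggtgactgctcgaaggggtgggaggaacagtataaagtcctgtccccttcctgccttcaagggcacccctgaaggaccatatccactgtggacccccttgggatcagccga
LINC00941: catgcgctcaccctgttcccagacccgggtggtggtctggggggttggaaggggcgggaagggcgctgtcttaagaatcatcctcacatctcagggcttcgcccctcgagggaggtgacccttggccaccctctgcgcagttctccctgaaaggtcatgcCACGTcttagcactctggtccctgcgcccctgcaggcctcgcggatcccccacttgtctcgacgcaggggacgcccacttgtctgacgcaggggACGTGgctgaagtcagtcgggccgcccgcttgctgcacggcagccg
LINC00338: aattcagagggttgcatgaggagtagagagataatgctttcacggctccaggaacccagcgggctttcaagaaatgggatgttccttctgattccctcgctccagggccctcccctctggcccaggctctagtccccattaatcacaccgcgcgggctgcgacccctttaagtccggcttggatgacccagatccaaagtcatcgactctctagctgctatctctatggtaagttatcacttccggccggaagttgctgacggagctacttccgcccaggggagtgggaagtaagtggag
LINC00887 held ACGTG once, 143 bases before the start. LINC00941, which fell, held it on both strands, once on the minus strand 90 bases before the start and once on the plus strand at base 5 of the transcript. In LINC00659 and LINC00338 neither ACGTG nor GCGTG was found in this window, which says nothing about HIF elsewhere at these genes. Searching both strands, where a site CACGTG counts on each, 48.4% of all 35116 RefSeq promoters of this length held at least 1 of the motifs and 21.4% held ACGTG. Of the 53 member promoters that could be matched the shares were 60.4% and 43.4%, and of the 7 whose gene was called higher at 24 h they were 71.4% and 42.9%. These are matches of letters, not sites of binding. Whether the RefSeq start is that of the transcripts measured, and the base composition of the windows, was not tested.

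LINC00263, now named OLMALINC after oligodendrocyte maturation, was the most abundant of the 10 LINC genes called higher. It lies on chromosome 10, 102132856 to 102213800, plus strand (GRCh37). It was at 3.92, 4.54 and 7.45 FPKM at 0 h and 20.2, 19.3 and 17.3 at 24 h, a log2 change of 1.79 ± 0.40 (SE), limma adjusted p = 0.00252. All 3 libraries at 24 h were above all others. The libraries at 1 h were at 4.22, 5.39 and 11.2 FPKM and those at 2 h at 4.04, 5.47 and 13.7, so that 1 library at each early time stood well above its companions. Isoforms with a partial match to Ensembl made up 79.4% ± 2.04 (SD, n = 3) of its FPKM at 0 h and 88.1% ± 2.34 at 24 h. With full matches alone, its log2 change was 0.80 (limma adjusted p = 0.111) and it was not called. Without 0 h replicate 1 or without 0 h replicate 2 its log2 change was 1.62 and 1.71, and the limma adjusted p of 0.0129 and 0.0109 missed the threshold. Its neighbour SCD, the stearoyl-CoA desaturase that makes monounsaturated fatty acids, lies 8598 bases from the assembled locus and had a log2 change of 1.11 (adjusted p = 0.0166 by limma), short of the threshold.

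LINC00963, first described in prostate cancer cells, was at 3.30, 3.58 and 4.19 FPKM at 0 h and 9.21, 10.1 and 10.2 at 24 h. The log2 change was 1.31 ± 0.24 (SE), limma adjusted p = 0.00064. The 24 h libraries were above all earlier ones, which reached 6.86 FPKM in 1 library at 1 h. Its nearest expressed coding gene, NTMT1, an N-terminal methyltransferase, was called in the other direction (log2 change -1.16, adjusted p = 2.19e-05 by limma).

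LINC01057 lies across SLC44A3 on the opposite strand and is now called SLC44A3-AS1. It was at 1.02, 0.721 and 0.923 FPKM at 0 h and 5.77, 3.72 and 3.24 at 24 h, with a log2 change of 1.74 ± 0.26 (SE), limma adjusted p = 0.000128. SLC44A3, of the choline transporter-like family, rose as well, with a log2 change of 1.12 (adjusted p = 0.00132 by limma). The labels describe the libraries as strand-specific, but how reads were divided between the pair was not tested, and LINC01057 also resembles 5 other genes over parts of its length. With full matches to Ensembl alone its log2 change was 1.35 and its limma adjusted p was 0.0142, so that it was not called.

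LINC00659 had the second largest log2 change and the widest spread. It was at 0.798, 1.02 and 1.08 FPKM at 0 h and 7.50, 5.001 and 3.26 at 24 h, a log2 change of 1.91 ± 0.54 (SE), limma adjusted p = 0.00953. The groups at 0 and 24 h did not overlap. At 2 h the libraries were at 1.17, 0.943 and 7.92 FPKM, so that a single library there exceeded all of those at 24 h. The call was lost with a pseudocount of 1, with full matches alone, with a mean above 0.5 FPKM as the filter (limma adjusted p = 0.0102) and when any 1 of the 6 libraries at 0 and 24 h was left out, and the log2 change lay between 1.61 and 2.26 over all alternatives.

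In addition to LINC00887, 3 LINC genes were called higher from means of 0.160 to 0.431 FPKM at 0 h. LINC00482 was at 0.276, 0.473 and 0.544 FPKM at 0 h and 1.64, 1.73 and 2.58 at 24 h (log2 change 1.41 ± 0.26 (SE), limma adjusted p = 0.000645). LINC00886 was at 0.218, 0.325 and 0.349 FPKM at 0 h and 2.14, 1.23 and 1.26 at 24 h (log2 change 1.33 ± 0.21 (SE), limma adjusted p = 0.000233). LINC00663 was at 0.0934, 0.195 and 0.193 FPKM at 0 h and 0.987, 1.09 and 1.44 at 24 h (log2 change 1.33 ± 0.27 (SE), limma adjusted p = 0.0012). In each of them every library at 24 h was above every earlier one. LINC00886 passed the level threshold only through the 24 h libraries, as did LINC00882, and LINC00663 did so through those and 1 library at 2 h. Such genes had to differ between the times to be listed. LINC00886 and LINC00663 were not called with a pseudocount of 1, and LINC00482 was not called with full matches alone (log2 change 0.89, limma adjusted p = 0.0282).

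The isoform of LINC00886 that was called is a reference one of 566 bases (ENST00000473352), which was at 0 FPKM in all 3 libraries at 0 h. It stood at 1.56, 0.749 and 0.715 FPKM at 24 h and did not exceed 0.0675 FPKM earlier, so that it too passed the level threshold only through the 24 h libraries and had to differ. An overlapping processed pseudogene, PA2G4P4, was called lower, with a log2 change of -1.26.

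The other 2 genes called higher are uncertain for separate reasons. LINC00085 is part of SPACA6, a gene for a sperm membrane protein needed for fertilisation, in current annotation. It was at 0.845, 1.67 and 1.27 FPKM at 0 h and 4.89, 3.19 and 2.69 at 24 h (log2 change 1.21 ± 0.34 (SE), limma adjusted p = 0.00889), and lost its call with a pseudocount of 0.1, in TPM over transcripts of at least 300 bases, with full matches alone and when any 1 library at 0 h, 24 h replicate 1 or 24 h replicate 2 was left out. Over all alternatives its log2 change lay between 0.99 and 1.44. LINC01001 lies near the end of the short arm of chromosome 11 and matched 19 other genes, the best at 97.2% identity over 2159 bases. It was tightly grouped at 3.07, 3.02 and 3.15 FPKM at 0 h and stood at 5.90, 7.20 and 9.16 at 24 h (log2 change 1.13 ± 0.15 (SE), limma adjusted p = 5.17e-05), without overlap. Without 24 h replicate 3 the log2 change was 0.97, under the fold threshold. At the level of its Cufflinks locus, which also holds BET1L, the log2 change was 0.16 and was not called.

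LINC00941 and LINC00338 were the 2 LINC genes called lower at 24 h against 0 h. LINC00941, a long noncoding RNA described in gastric and colorectal tumours, was at 4.79, 5.09 and 4.21 FPKM at 0 h and 1.40, 1.49 and 2.76 at 24 h, a log2 change of -1.17 ± 0.21 (SE), limma adjusted p = 0.000605. No library at 24 h reached the lowest of the earlier ones, 3.35 FPKM. The nearest expressed gene was CAPRIN2, for an RNA-binding protein, 40091 bases from the assembled locus. GENCODE release 44, with its own positions for both genes, places LINC00941 across CAPRIN2 on the opposite strand. CAPRIN2 rose (log2 change 1.09, adjusted p = 0.000153 by limma). LINC00338 is SNHG20, a host gene of small nucleolar RNAs. It was at 5.54, 6.82 and 4.37 FPKM at 0 h and 1.60, 2.64 and 2.50 at 24 h (log2 change -1.15 ± 0.32 (SE), limma adjusted p = 0.00914), and its values at 1 and 2 h ranged from 2.09 to 6.99, overlapping both. The call was near the threshold. It was lost under median-of-ratios scaling (log2 change -1.09, limma adjusted p = 0.0125), with full matches alone, where the log2 change was the same and the limma adjusted p was 0.0112, and when any 1 of the 6 libraries at 0 and 24 h was left out. LINC00338 shares its strand and its assembled locus with SEC14L1, a phospholipid-transfer protein gene that rose (log2 change 1.00, adjusted p = 1.62e-05), and how Cufflinks divided the reads between them was not tested. Other called members had nearest expressed genes that were not called. These were NTSR1 for LINC00659 (log2 change 0.22), TMEM105 for LINC00482 (0.68) and ZNF577 for LINC00085 (0.12). They also included CTC-559E9.6 for LINC00663 (-0.55) and BET1L for LINC01001 (-0.06).

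**Figure D2:**
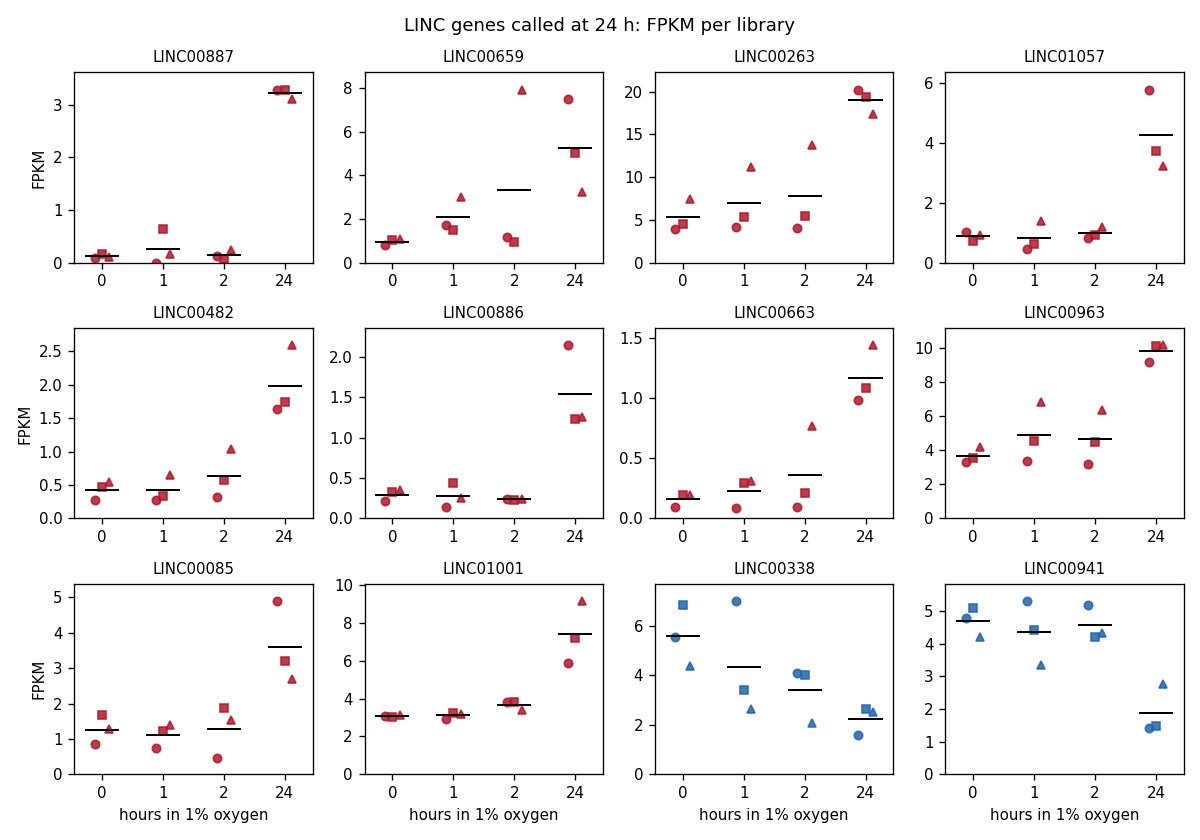
FPKM of the 12 LINC genes called at 24 h against 0 h, by hours in 1% oxygen. Circles, squares and triangles are replicates 1, 2 and 3, bars are means of 3 libraries, and each panel has its own vertical scale from 0. Red panels are genes called higher and blue panels genes called lower. In all 12 the libraries at 24 h lie outside the range of those at 0 h, and in LINC00659 1 library at 2 h exceeds them.

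Of the 10 LINC genes with the highest mean FPKM, LINC00263 alone was called against 0 h, where 18.3% of all gene names were, and the median log2 change of the 10 was 0.14. The 8 over 10 FPKM had log2 changes of -0.55 to 0.90 and none of them was called against 0 h, although LINC00511 and LINC00998 were called against 2 h. As the plot of level against change shows, all 10 genes called higher had a mean level under 10 FPKM, as did all but 8 of the 73 members.

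**Figure D3:**
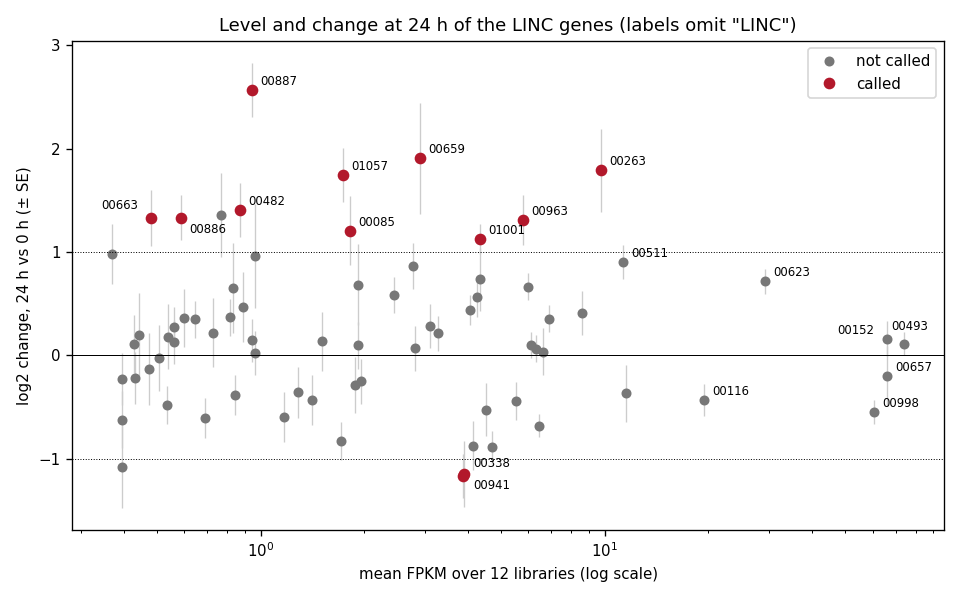
Mean FPKM over 12 libraries (horizontal, log scale) and log2 change at 24 h against 0 h on the log2(FPKM + 0.5) scale with its standard error (vertical) for the 73 LINC genes. Dotted lines mark log2 changes of 1 and -1. Red points are the 12 called genes, which lie between 0.480 and 9.74 FPKM, and the 8 genes over 10 FPKM are all grey.

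Several of the abundant members are now annotated with small proteins. A list of 9 LINC names later assigned a micropeptide was examined, of which 8 were listed and 4 passed the level threshold, and 0 of the 4 were called at 24 h against 0 h (18.3% of all gene names were). LINC00998, now SMIM30, encodes a small membrane protein. It was at 56.7, 55.1 and 58.5 FPKM in normal oxygen, 77.3, 61.4 and 64.6 FPKM after 1 h, 81.2, 70.1 and 83.7 after 2 h and 33.6, 42.3 and 40.3 after 24 h. All libraries at 2 h were above those at 0 h and all at 24 h were below them. Its log2 change was 0.46 ± 0.12 (SE), limma adjusted p = 0.118 at 2 h, not past the threshold, and -0.55 ± 0.12 (SE), limma adjusted p = 0.00154 at 24 h, past the p but not the fold. Between 2 and 24 h it fell, with a log2 change of -1.01 ± 0.12 (SE), limma adjusted p = 2.26e-05.

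LINC00493, now SMIM26 and coding for a mitochondrial small protein, had the highest mean of all LINC genes. It was at 74.7, 71.8 and 69.9 FPKM at 0 h and 74.5, 93.7 and 68.3 at 24 h, with a log2 change of 0.11 ± 0.11 (SE), limma adjusted p = 0.4. The groups overlapped, and the sign turned without 24 h replicate 2. LINC00116, now MTLN, encodes mitoregulin, a peptide of the inner mitochondrial membrane. It was at 20.5, 17.6 and 19.7 FPKM at 0 h and 14.1, 18.0 and 11.0 at 24 h (log2 change -0.43 ± 0.16 (SE), limma adjusted p = 0.0362), again with overlap. LINC00094, now BRD3OS for its place opposite BRD3, was at 7.55, 7.04 and 7.995 FPKM at 0 h and 4.61, 4.31 and 4.62 at 24 h, lower without overlap but under the fold threshold (log2 change -0.68 ± 0.11 (SE), limma adjusted p = 0.000337). Of the others, LINC00086 (SMIM10L2A) was at 0.00711, 0.0621 and 0.120 FPKM at 0 h and 0.285, 0.218 and 0.309 at 24 h. Its libraries at 24 h were above all earlier ones, but under the level threshold, so that it was not part of the main test. LINC00961 (SPAAR) and LINC00948 (MRLN) did not exceed 0.0253 and 0.161 FPKM, and LINC00675 was at 0 throughout. Over all 8 members that RefSeq lists as coding, LINC00085 was called higher and none was called lower, against 8.76% and 9.51% of all gene names, and the median log2 change at 24 h was -0.44.

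**Figure D4:**
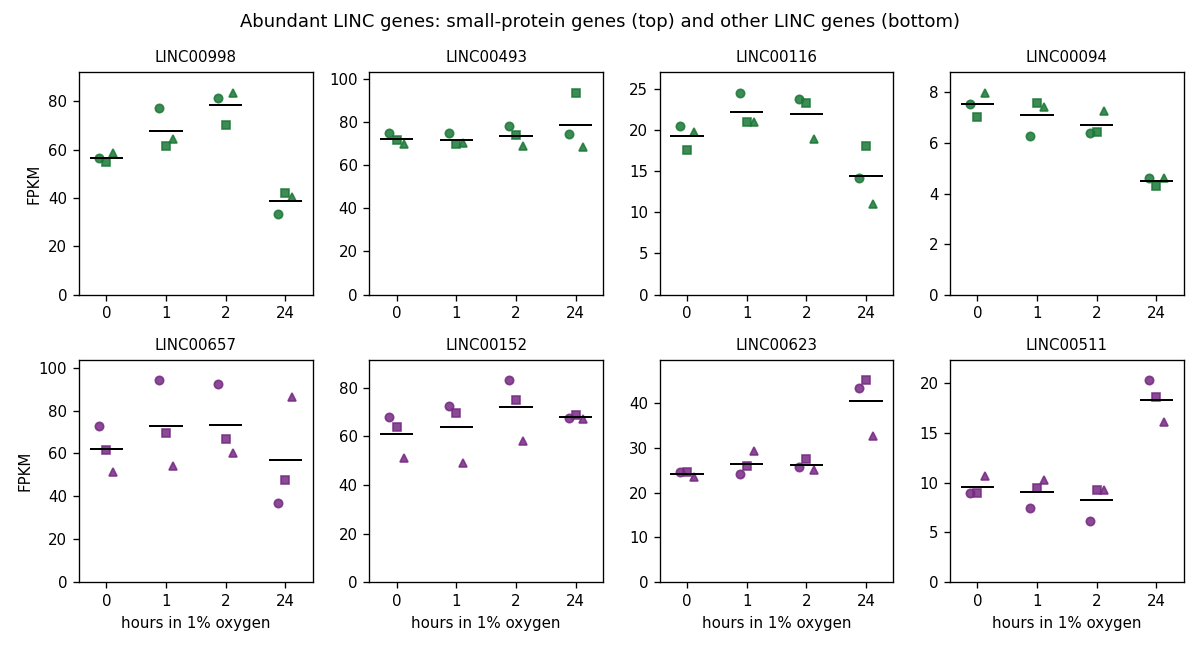
FPKM by hours in 1% oxygen of 4 LINC genes now annotated with small proteins (top, green) and 4 other abundant LINC genes (bottom, purple). Symbols are replicates 1 (circle), 2 (square) and 3 (triangle), and bars are means of 3 libraries. LINC00998 is highest at 2 h and lowest at 24 h, and LINC00657 spreads more widely within 24 h than between times.

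Among 11 LINC names whose RNA has a described role, 7 passed the level threshold and LINC00338 was the one called, a share near the 18.3% of all gene names. LINC00657, now NORAD, binds PUMILIO proteins and helps to keep chromosomes stable. It was at 72.9, 61.4 and 51.6 FPKM at 0 h and 37.1, 47.6 and 86.5 at 24 h (log2 change -0.20 ± 0.29 (SE), limma adjusted p = 0.587). The 24 h libraries lay on both sides of those at 0 h, the sign turned without 24 h replicate 1, and a copy at OVCH1-AS1 of 95.9% identity makes its level uncertain. LINC00152, now CYTOR and linked to the cytoskeleton, was at 67.9, 63.8 and 51.1 FPKM at 0 h and 67.4, 68.8 and 67.1 at 24 h (log2 change 0.16 ± 0.17 (SE), limma adjusted p = 0.43). It is 99.7% identical to MIR4435-2HG over 970 bases.

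LINC00511, described as growth-promoting in several carcinomas, was at 8.97, 8.998 and 10.6 FPKM at 0 h and 20.3, 18.6 and 16.1 at 24 h. All 24 h libraries were higher, but the log2 change of 0.90 ± 0.17 (SE), limma adjusted p = 0.000677, stayed under the fold threshold. Against 2 h, where it was at 6.17, 9.28 and 9.21 FPKM, it was called higher. LINC00467 was at 9.22, 10.8 and 15.9 FPKM at 0 h and 6.67, 10.1 and 10.6 at 24 h, with overlap. LINC00339, beside the cell-polarity gene CDC42, was at 5.61, 5.87 and 5.77 and 6.21, 5.49 and 6.47 FPKM, also with overlap. LINC00261 and LINC00473 were at 0 in every library, LINC00461 did not exceed 0.0082 FPKM, and LINC00478 (MIR99AHG) was above 0 in 1 library at 24 h, at 0.539 FPKM. LINC00623, the fifth most abundant LINC gene, was at 24.6, 24.5 and 23.4 FPKM at 0 h and 43.4, 45.1 and 32.7 at 24 h, higher without overlap and under the fold threshold (log2 change 0.72 ± 0.12 (SE), limma adjusted p = 0.000348). It was not searched for copies elsewhere.

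Calls at 24 h were also counted by features that members share, beside 18.3% of all gene names. The groups are small and nothing is read from their counts. Among 4 members that RefSeq names as hosts of small nucleolar or micro RNAs (LINC00338, LINC00669, LINC00888 and LINC00969), LINC00338 was called. Among 5 with an antisense or divergent name, LINC01057 was called. The 10 members that GENCODE places across a coding gene on the opposite strand held 1 called higher and 1 called lower, with a median log2 change of -0.33. The 16 with near-identical copies held 2 called higher, LINC01001 and LINC01057, with a median of 0.10.

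Single isoforms showed changes that the gene sums did not. Of 134 isoforms from 54 members that passed the level threshold, limma called 7 (5.22%), 4 higher and 3 lower, against 11.5% of all 62162 transcripts tested. LINC00973 was not called as a gene, with 4.12, 4.34 and 4.71 FPKM at 0 h and 6.80, 7.64 and 7.35 at 24 h (log2 change 0.67 ± 0.13 (SE), limma adjusted p = 0.000876). Its isoform of 1468 bases, a partial match, was at 0.512, 1.34 and 0.738 FPKM at 0 h and 5.05, 5.46 and 5.85 at 24 h, with no overlap (log2 change 2.17 ± 0.29 (SE), limma adjusted p = 0.000306). Its reference isoform of 962 bases was at 1.77, 1.83 and 2.39 and 1.18, 1.64 and 1.02 FPKM (log2 change -0.50 ± 0.23 (SE), limma adjusted p = 0.141). Partial matches made up 54.7% ± 4.70 (SD, n = 3) of the gene's FPKM at 0 h and 82.4% ± 3.80 at 24 h. How Cufflinks divided reads between similar isoforms was not tested, so that changes of single isoforms are less certain than those of gene sums. In LINC00115, for example, isoforms of 1317 and 1298 bases were never both above 0 in the same library.

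In LINC00941 the called isoform was the reference one of 1645 bases (ENST00000547804), at 2.87, 2.28 and 2.19 FPKM at 0 h and 0.438, 0.536 and 0.678 at 24 h (log2 change -1.49 ± 0.26 (SE), limma adjusted p = 0.00163). Its reference isoform of 632 bases was also lower without overlap, at 1.004, 1.90 and 0.772 FPKM at 0 h and 0.184, 0.0588 and 0.756 at 24 h, but was not called (log2 change -1.09 ± 0.36 (SE), limma adjusted p = 0.0435). Its reference isoform of 688 bases was at 0.403, 0.424 and 0.836 and 0.439, 0.467 and 0.634 FPKM and overlapped. In LINC00338 the isoform of 2139 bases (ENST00000434411) was called (log2 change -1.69 ± 0.34 (SE), limma adjusted p = 0.00385). The isoform of 1028 bases overlapped between the times. LINC00998 likewise had an isoform of 1070 bases at 42.6, 38.2 and 38.5 FPKM at 0 h and 15.4, 24.9 and 26.1 at 24 h, just short of the threshold (log2 change -0.87 ± 0.22 (SE), limma adjusted p = 0.013), and an isoform of 962 bases at 13.9, 16.7 and 19.6 and 17.9, 17.1 and 13.6 FPKM. LINC00511 had a called reference isoform of 1696 bases, at 2.66, 2.66 and 2.22 FPKM at 0 h and 9.98, 8.58 and 6.64 at 24 h, and LINC00839 one of 2253 bases, at 3.24, 3.15 and 3.17 and 1.87, 1.21 and 0.841 FPKM, which was lower. In LINC00338 and LINC00998 one isoform separated the times and the other one described did not, and in LINC00941 a pair of isoforms did, although the difference between isoforms of a gene was not tested.

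**Figure D5:**
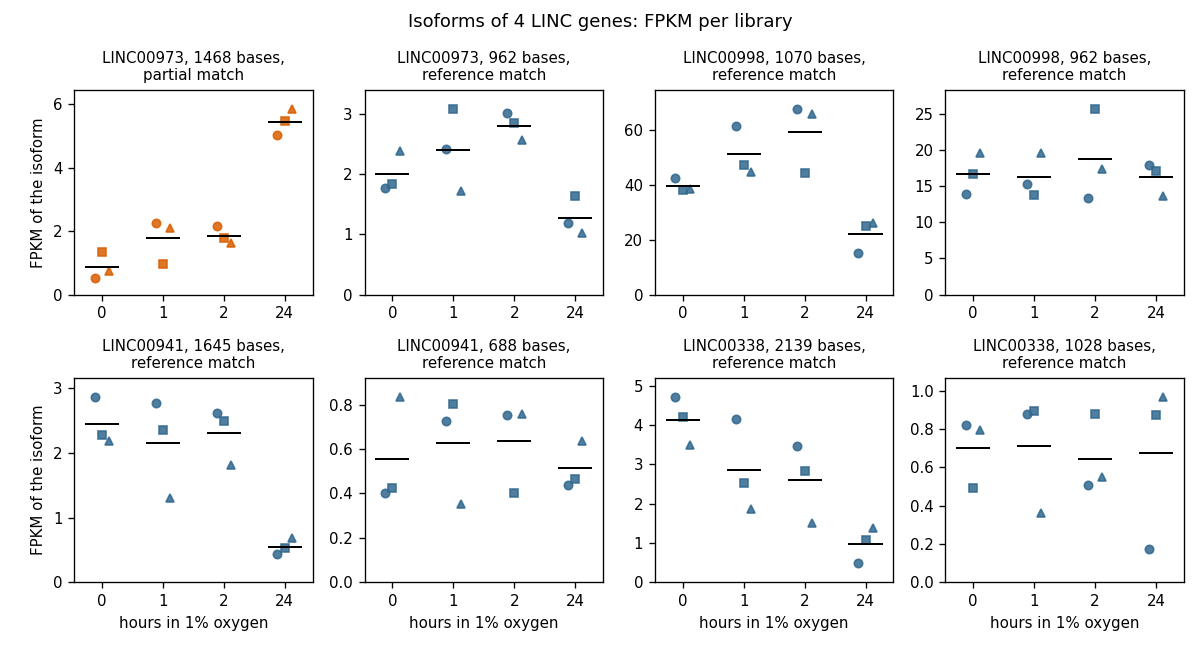
FPKM of the isoforms with the largest and the smallest absolute log2 change at 24 h in LINC00973, LINC00998, LINC00941 and LINC00338, by hours in 1% oxygen. Blue marks isoforms that match an Ensembl model and orange those that match in part, symbols are replicates 1 (circle), 2 (square) and 3 (triangle), and bars are means. The 1468-base isoform of LINC00973 stands at 5.05 to 5.85 FPKM at 24 h and at most 2.25 FPKM earlier.

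Taking 2 h instead of 0 h as the reference gave a similar number of calls. Limma called 12 of 73 (16.4%) at 24 h against 2 h, 10 higher and 2 lower, where 14.7% of all gene names were called (7.44% of all were higher and 7.28% lower). The 2 contrasts share their 24 h libraries, and 8 genes were called in both. LINC00505, LINC00511, LINC00882 and LINC00998 were called against 2 h alone, and LINC00263, LINC00338, LINC00659 and LINC01001 against 0 h alone. Without 2 h replicate 1 the count fell to 4, where 12.7% of all gene names were called. At 2 h the 4 genes called against 0 h alone were at 7.75 ± 5.23, 3.39 ± 1.13, 3.35 ± 3.96 and 3.69 ± 0.243 FPKM (SD, n = 3).

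At 2 h LINC00998 had the lowest p of the members, followed by LINC00973 with a log2 change of 0.46 ± 0.13 (SE), limma adjusted p = 0.144. LINC00973 was at 6.57, 6.59 and 4.99 FPKM at 1 h and 6.73, 6.05 and 5.96 at 2 h, all above its 0 h libraries. On the lower side LINC00680 had a log2 change of -0.53 ± 0.18 (SE), limma adjusted p = 0.212, and LINC00839 one of -0.45 ± 0.16 (SE), limma adjusted p = 0.227. None of these passed the threshold.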

How the data were processed

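HCT116 RNA from 12 libraries was analysed. Per the paper, the authors aligned reads to hg19 with MapSplice, assembled transcripts with Cufflinks, merged them with Ensembl and deposited an FPKM value for each transcript and library. The submitters' processing notes also name CASAVA 1.8.2. FPKM values were taken as deposited by the authors and summed per gene name over class codes = and j. Gene names above 0.5 FPKM in at least 3 libraries were kept. The files hold FPKM and not the read counts that the paper's edgeR test needs, so log2(FPKM + 0.5) was fitted with limma 3.58.1 in R 4.3.3 (lmFit and eBayes with trend) over all 12 libraries, two-sided, with Benjamini-Hochberg adjustment over 16680 gene names. Isoforms were fitted the same way. The fit was tested on made-up data with known answers. Between 0 and 2 h the same-numbered libraries deviated together (r of 0.25, 0.13 and 0.36), and with a replicate block limma also called 0 members at 2 h. Between 24 h and 0 h they did not all do so.

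Positions and types came from GENCODE release 44 on GRCh37, names and promoters from RefSeq, and copies from BLAST 2.17.0. Neighbours with a name at more than 1 locus were left out. Members and gene lists were chosen with earlier results of these data known. Named genes were those called, the 10 most abundant, those beside the level threshold and 2 lists by role. LINC00623 falls under the 10 most abundant, and LINC00680 and LINC00839 were named after their values were seen, as were the isoforms, which include all 7 that were called.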

Additional observations from a re-analysis of the deposited data

Results flagged for a closer look

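In 12 LINC genes the change under 1% O2 differed between 2 h and 24 h by limma's direct contrast of the 2 times, past the same threshold as in the other comparisons. That is 16.4% of the members, where 14.7% of all gene names passed. The log2 change at 24 h exceeded that at 2 h by 2.53 in LINC00887, 1.65 in LINC01057, 1.49 in LINC00505, 1.45 in LINC00886 and 1.26 in LINC00085. It exceeded it by 1.15 in LINC00482, 1.12 in LINC00511, 1.08 in LINC00882, 1.04 in LINC00963 and 1.03 in LINC00663. LINC00882 and LINC00886 were listed only through their 24 h libraries and so had to differ. In LINC00941 the difference was -1.13 and in LINC00998 it was -1.01. LINC00998 was the one whose log2 change was positive at 2 h (0.46) and negative at 24 h (-0.55). LINC00505, at 0.266, 0.195 and 0.292 FPKM at 2 h and 0.729, 3.25 and 1.54 at 24 h, is named a pseudogene of FAAH (FAAHP1) in RefSeq.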

How the results depend on the processing

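In each of the 20 other settings run for that contrast, limma called 0 LINC genes at 1 h and at 2 h. Libraries outside a contrast were not left out. At 24 h against 0 h the 12 calls became 7 with full matches to Ensembl alone (4 higher and 3 lower, 5 of them among the 12, with 18.1% of all gene names called) and 21 with an adjusted p under 0.01 alone (41.5%), and 8 to 12 when 1 library was left out (16.1% to 19.4%). At 24 h against 2 h the 12 became 7 with a pseudocount of 1 (11.8% of all gene names), 7 without a filter on level (7.7%), 7 with the 6 libraries of the contrast alone (14.1%), 4 with full matches alone (2 higher and 2 lower, 3 among the 12, 14.2%), 19 with the adjusted p alone (36.6%), and 4 to 11 when 1 library was left out (12.7% to 16.4%). Without a filter on level LINC00085, LINC00263, LINC00338 and LINC00659 were not called at 24 h against 0 h, with the same log2 changes and limma adjusted p of 0.0111 to 0.0335. Same-numbered libraries did not all deviate together (r from -0.08 to 0.43 over 18 pairs, mean 0.15). The mean of -0.077 over 36 pairs of different numbers is no separate comparison. It largely follows from the first mean, since each group was centred on its own mean. A fit with a replicate block called the same 12 at 24 h against 0 h (18.6% of all gene names) and 13 against 2 h (15.0%), 11 of them among the 12 without it. In that fit LINC00467, lower at 24 h in 3 of 3 same-numbered pairs, had a limma adjusted p of 0.0163, against 0.28 without the block, and LINC00674, higher in 3 of 3, one of 0.00427 against 0.116. Neither passed the fold threshold in either fit. At 24 h against 0 h, LINC00887, LINC00941 and LINC00963 were called in every setting in which they were tested. Against 2 h, LINC00941 was not called without 24 h replicate 1. Signs turned for LINC00338 with the Cufflinks locus as the unit (0.73), LINC00339 in TPM over transcripts of at least 300 bases (-0.019), LINC00674 and LINC00973 with full matches alone (-0.19 and -0.50), LINC00493 when 1 library was left out (-0.016, without 24 h replicate 2, to 0.21) and LINC00657 likewise (-0.54 to 0.064, the latter without 24 h replicate 1). The locus of LINC00338 includes SEC14L1; the other causes were not tested. The TPM scaling set the median of all genes at -0.13, against -0.05 in FPKM. The paper gives the mean and range of mapped read pairs per sample. Without read counts by gene, the fragments behind low values could only be estimated roughly, which was not done.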

Other observations

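Several LINC genes that were not called spread widely at 24 h. LINC01011, which shares a locus with NQO2, was at 0.251, 1.54 and 2.80 FPKM, LINC00326 at 10.4, 6.86 and 3.76, and LINC00173 at 2.44, 2.22 and 5.29. At 0 h the same genes were at 0.842, 0.645 and 0.355 FPKM, 2.73, 3.79 and 4.80, and 1.24, 1.54 and 2.63. These genes were named after their values were seen. LINC01059, part of GRAMD1B in current annotation, was at 0.847, 0.263 and 0.734 FPKM at 0 h and did not exceed 0.0281 FPKM at 24 h (log2 change -1.08, limma adjusted p = 0.0355).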
